A study of Mus musculus with 12 samples.

Results

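MiR-148a and miR-152 are microRNAs (miRNAs) with the same seed, the stretch near the 5′ end that pairs with target transcripts. Both were taken by their names on the array, mmu-miR-148a and mmu-miR-152, 2 of 611 mouse miRNA names, and they were chosen because earlier results on these arrays showed their tunicamycin responses. The RNA came from C57BL/6 mouse embryonic fibroblasts that lacked ATF4 (KO) or were wild type (WT). Each genotype was left untreated or given tunicamycin at 2 ug/mL for 12 h or 24 h, which made 6 groups: untreated KO, KO at 12 h, KO at 24 h, untreated WT, WT at 12 h and WT at 24 h. Each group had 2 arrays, from experiments described as independent, and the small number of arrays limits the precision. The labels do not say how the cultures were derived, how the Atf4 allele was made or whether a genotype is represented by more than 1 line. The question of the series was which miRNAs respond to tunicamycin at 12 h in a way that depends on ATF4.

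A miRNA is cut from a hairpin precursor, loaded into an Argonaute protein, and lowers the translation and stability of messenger RNAs that match its seed. Members of the miR-148 and miR-152 family are known from human cells to target DNMT1, the maintenance DNA methyltransferase, and miR-148a is known from liver as a regulator of cholesterol transport and uptake. Tunicamycin blocks N-linked glycosylation, so that unfolded proteins build up in the endoplasmic reticulum. The kinase PERK then phosphorylates eIF2alpha, and the translation of ATF4, a transcription factor of the stress response, goes up.

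The mature sequences are shown because the 3 family members carry the same seed and differ only outside it. They are from RefSeq on the GRCm38.p6 build, written 5′ to 3′, with the seed (bases 2 to 8) in capitals. The array names are older ones, and each corresponds to the 3p arm in RefSeq.
miR-148a: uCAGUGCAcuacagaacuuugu
miR-152: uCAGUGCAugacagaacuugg
miR-148b: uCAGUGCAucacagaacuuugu
The seed CAGUGCA stood in 3 of 1679 mature mouse miRNA names in the RefSeq table (0.179%), and these were the 3 family members. Counted from the 5′ end, with the base of miR-152 first, miR-152 differs from miR-148a by U9C, G10U and G20U, so that 18 of 21 bases are the same. With the base of miR-148b first, miR-148b differs from miR-148a by U9C and C10U.

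The mature miR-148a lies at chr6:51269829-51269850 on the minus strand, inside a hairpin at chr6:51269812-51269910 that falls within the bounds of the predicted gene Gm38821. The mature miR-152 lies at chr11:96850439-96850459 on the plus strand, inside a hairpin at chr11:96850393-96850465 within Copz2, which encodes a subunit of the COPI vesicle coat. The 2 hairpins are shown because both miRNAs come from the 3p arm, printed in capitals, of separate genes.
Mir148a hairpin: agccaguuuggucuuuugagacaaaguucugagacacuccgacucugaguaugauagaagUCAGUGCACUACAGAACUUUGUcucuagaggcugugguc
Mir152 hairpin: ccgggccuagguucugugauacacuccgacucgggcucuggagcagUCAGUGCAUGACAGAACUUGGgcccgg

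Signals are given as the sum over the probes of a miRNA, in percent of the scaling value of the array, which was the 75th percentile of the 82 miRNAs that were well above background on every one of the 12 arrays. That value ran from 203.5 to 791.2 signal units, and 92 to 164 mouse miRNAs were well above background on an array. The 4 untreated arrays shared 1 slide and the 8 tunicamycin arrays shared a second, and slide therefore cannot be told apart from treatment. WT arrays were in row 1 and KO arrays in row 2 of each slide, so that genotype and row cannot be told apart either. Scan dates held both genotypes and, on the tunicamycin slide, both times, and within-date values are therefore given for those comparisons. The array holds no Atf4 messenger RNA, so the genotype labels were not checked. Of 8 fibroblast and mesenchymal markers, 7 were well above background on at least 1 array and 6 on all 12. MiR-145 never was, 0 of 6 epithelial and 0 of 3 neural markers ever were, and at most 1 muscle, 1 blood or endothelial and 1 pluripotency marker was on any array.

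MiR-148a was brightest in untreated WT cells, lower in WT cells after tunicamycin, and on the scaled signal not lower in treated than in untreated KO cells. In KO cells its signal was 5.04% and 5.45% of the array's scaling value untreated, 9.80% and 7.44% at 12 h, and 7.24% and 5.57% at 24 h. In WT cells it was 10.2% on both untreated arrays, 5.11% and 2.75% at 12 h, and 4.17% and 4.43% at 24 h. Neither treated WT group overlapped the untreated WT arrays, and both treated KO groups lay above both untreated KO arrays. The 12 h WT array at 2.75%, replicate 2, and 1 of 2 arrays in each 24 h group, replicate 1, were not well above background.

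**Figure D1:**
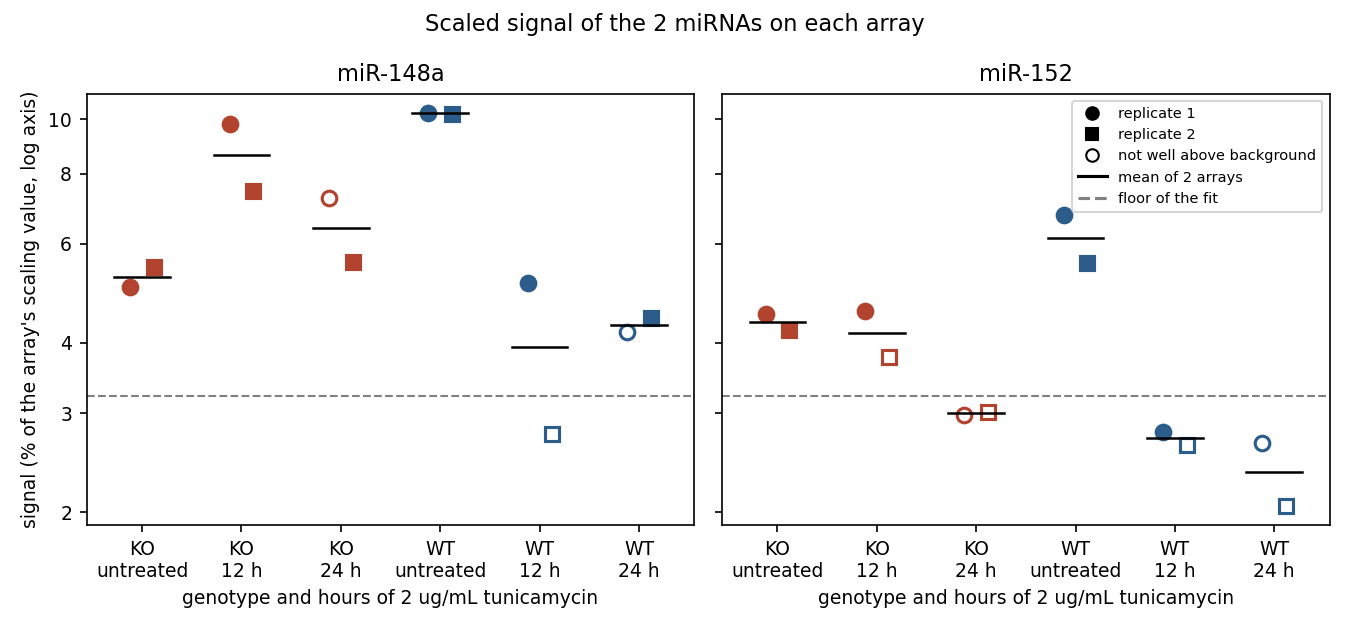
Signal of miR-148a (left) and miR-152 (right) on each of the 12 arrays, in percent of the array's scaling value on a log axis, by genotype and hours of tunicamycin. Lines mark the mean of 2 arrays, hollow symbols arrays not well above background, and the dashed line the floor of the fit at 3.22%. WT cells at 12 h and 24 h lie below untreated WT cells for both miRNAs. Treated KO cells lie above untreated KO cells for miR-148a on this scaled signal, but not before scaling.

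In log2 units miR-148a in WT cells differed from untreated WT cells by -1.34 (SE 0.24) at 12 h and by -1.25 (SE 0.24) at 24 h, which is 2.52-fold and 2.38-fold lower. In KO cells it differed from untreated KO cells by 0.70 (SE 0.24) at 12 h and by 0.28 (SE 0.24) at 24 h. The sign of the KO difference at 24 h rests on the scaling, since it was -0.86 unscaled. There the signals were 14.7 and 31.5 units in KO cells at 24 h, against 35.7 and 43.1 in untreated KO cells. The KO difference at 12 h rests on the scaling too, since the unscaled signals at 12 h were 50.5 and 31.1 units, which overlap the untreated ones. The difference of responses, KO minus WT, was 2.04 (SE 0.34) at 12 h and 1.53 (SE 0.34) at 24 h. Over other ways of processing it ran from -0.43 to 2.15 at 12 h and from -1.23 to 1.56 at 24 h. By replicate number, which does not pair arrays across the slides, it was 1.96 and 2.34 at 12 h before the floor, and 1.82 and 1.24 at 24 h. These differences are a description without a test, since the miRNA was chosen on them, and the comparisons at 12 h and 24 h share the untreated arrays. The medians over all 144 tested miRNAs were -0.33 and -0.18 for WT cells at 12 h and 24 h, 0.07 and 0.21 for KO cells, and 0.50 and 0.35 for the difference of responses. Without WT at 12 h replicate 2, the WT response at 12 h was -1.002, and without replicate 1 it was -1.67. In total RNA from a culture, fewer cells with a miRNA and less of it per cell cannot be told apart.

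MiR-152 was lower in treated than in untreated WT cells, but close to background, so that its lower end was not resolved. In KO cells its signal was 4.50% and 4.22% of the scaling value untreated, 4.55% and 3.77% at 12 h, and 2.98% and 3.01% at 24 h. In WT cells it was 6.75% and 5.54% untreated, 2.78% and 2.63% at 12 h, and 2.66% and 2.05% at 24 h. Both treated WT groups lay below both untreated WT arrays, while KO cells at 12 h overlapped untreated KO cells. It was not well above background on KO at 12 h replicate 2, WT at 12 h replicate 2, or any of the 4 arrays at 24 h. The KO arrays at 24 h and all 4 treated WT arrays fell under the floor of 3.22%, and the fit set them to the floor, so its standard errors for miR-152 are too small.

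With those arrays at the floor, miR-152 in WT cells at 12 h was -0.93 (SE 0.13) log2 units from untreated WT cells, and -1.18 without the floor. As a bound from the lowest signals well above background, miR-152 was at least 1.44-fold lower in WT cells at 24 h than in untreated WT cells, with measured means of 2.35% and 6.15%. In KO cells the difference from untreated KO cells was -0.07 (SE 0.13) at 12 h. At 24 h the same bound was 1.075-fold lower, with measured means of 2.997% and 4.36%. Neither bound allows for the spread between arrays. By probe A_54_P2334 the KO arrays at 24 h overlapped the untreated KO arrays, at -0.19 log2 units before the floor. The difference of responses, KO minus WT, was 0.85 (SE 0.18) at 12 h, and 1.104 without the floor. There replicate 1 gave 1.30 and replicate 2 gave 0.91, though the numbers do not pair arrays across the slides. At 24 h the difference of responses is not read as a result, since all 4 arrays were under the floor. These too are a description, since they chose the miRNA.

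By mean level, miR-148a ran from untreated WT cells through KO at 12 h, KO at 24 h, untreated KO and WT at 24 h to WT at 12 h. Only the last neighbours in that order, WT at 24 h and WT at 12 h, had overlapping arrays. MiR-152 ran from untreated WT cells through untreated KO, KO at 12 h, KO at 24 h and WT at 12 h to WT at 24 h. Untreated KO and KO at 12 h overlapped, as did WT at 12 h and WT at 24 h. The order of the last 3 groups of miR-152 was read under the floor and is not resolved.

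Each miRNA was read by 2 probes with 10 spots each, and the probes of miR-148a gave nearly the same differences. For probe A_54_P1273 the WT difference at 12 h was -1.52 log2 units and that of KO cells 0.69, each before the floor. For probe A_54_P1274 they were -1.42 and 0.72. The difference of responses, KO minus WT, at 12 h was 2.20 by the first probe and 2.14 by the second.

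The probes of miR-152 lay closer to background and differed more from each other. By probe A_54_P2333 the WT difference at 12 h was -1.63 log2 units, and by probe A_54_P2334 it was -0.99. In KO cells at 12 h the same probes gave -0.47 and 0.08, opposite in sign. On KO at 24 h replicate 1 the mean of probe A_54_P2333 was below 0, at -0.13 signal units with an SD of 1.11 over its spots, so it gave no log2 difference there. In WT cells at 24 h 0 of 20 spots of either miR-152 probe were well above background.

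**Figure D2:**
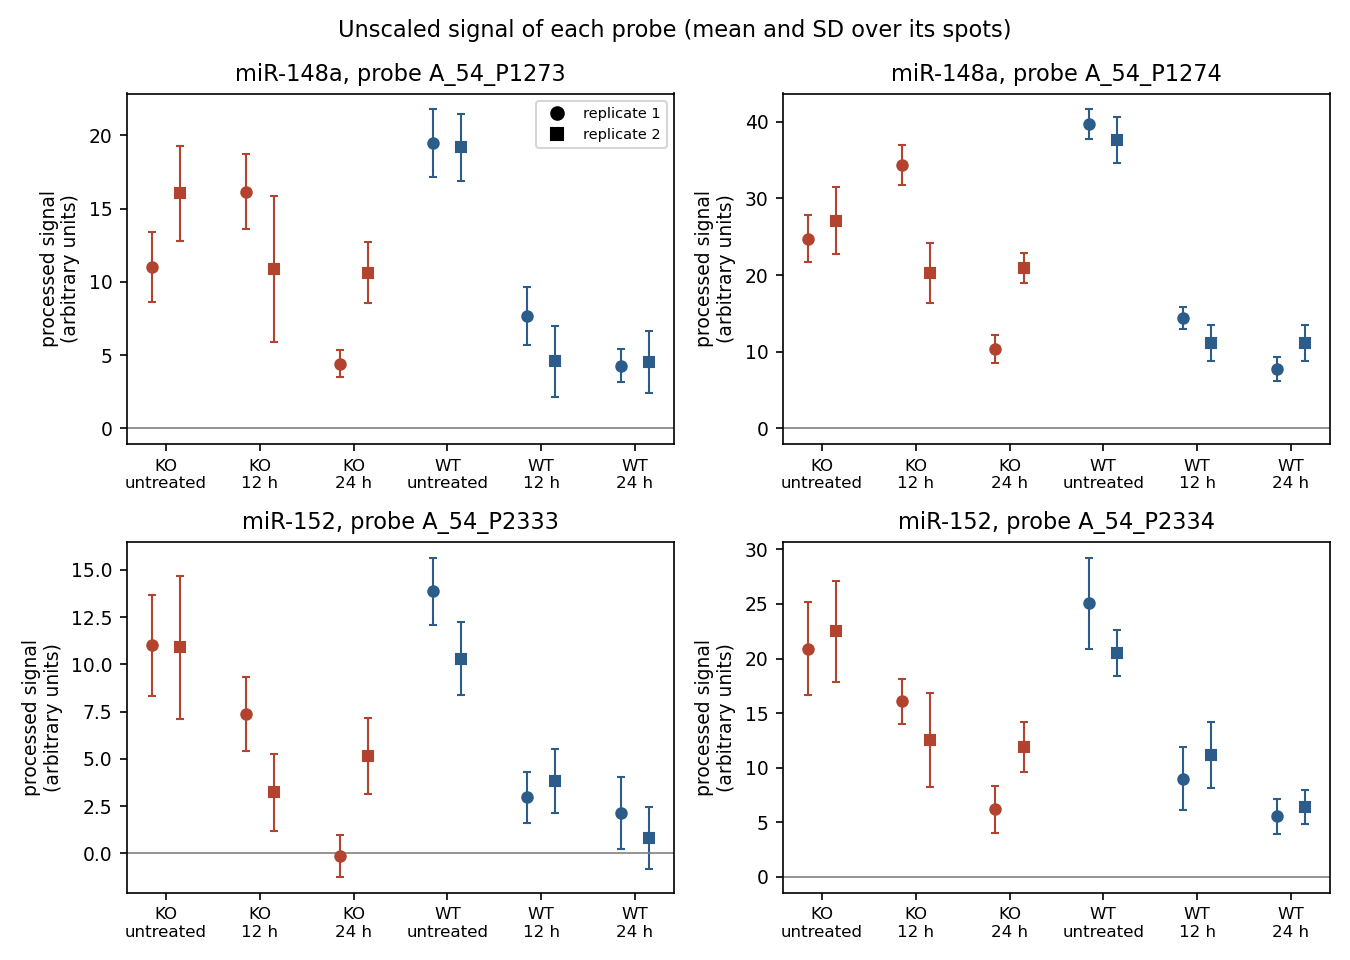
Unscaled signal of each probe in arbitrary units, as the mean and SD over its spots, on the 12 arrays by genotype and hours of tunicamycin. The untreated WT arrays are the brightest by both miR-148a probes, and probe A_54_P2333 of miR-152 is below 0 on 1 KO array at 24 h.

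The array software also deposited 1 total gene signal per miRNA, and for both miRNAs it departed from the sum of their probe signals on tunicamycin arrays. For miR-148a the total gene signal equalled the sum of the software's own probe signals on 8 of 12 arrays and was 2.66 to 15.3 times that sum on the other 4. For miR-152 it equalled the sum on 5 arrays, was 7.03 to 14.1 times the sum on 5, and was listed as undetected on 2. All 9 departures were on tunicamycin arrays, and 0 of the 4 untreated arrays had one for either miRNA.

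On each departing array 1 of the 2 probes was under 3 times its error, and the total gene signal equalled the other probe plus the total gene signal of the detected miRNA that precedes it by name. On WT at 12 h replicate 2, miR-148a had a total gene signal of 165.3 with 7.65 from its own probe, and miR-143, which precedes it there, had 157.7. On KO at 24 h replicate 1 it had 102.2 with 6.85 of its own, and the preceding miR-146b had 95.3. In the WT cells at 24 h its total was 21.2, with 5.14 of its own, in replicate 1, where miR-146a preceded it, and 129.4, with 7.56 of its own, in replicate 2, where miR-143 did.

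For miR-152 the preceding miRNA was miR-151-5p on all 5 departing arrays. MiR-152 had a total of 78.4 with 8.86 of its own on KO at 12 h replicate 2, and 130.0 with 8.03 of its own on KO at 24 h replicate 2. It had 85.8 and 87.7 in WT cells at 12 h, with 5.98 and 7.70 of its own, and 69.9 with 4.37 of its own on WT at 24 h replicate 2. On these arrays the total gene signal of miR-152 thus stood above all 4 untreated arrays, which had 21.2 and 22.6 in KO cells and 25.1 and 21.2 in WT cells.

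The same identity held across the array. Over the 12 arrays there were 1849 detected miRNA values. In all 1232 whose every probe reached 3 times its error, the total gene signal equalled the sum of probe signals within 0.1%. Of the 617 with a probe under 3 times its error, 545 (88.3%) equalled their own detected probes plus the total of the preceding detected miRNA, 70 equalled their own probes only, and 2 neither. The deposited value table is the log2 of this total gene signal. In that table the WT differences from untreated cells at 12 h were 0.35 for miR-148a and 1.91 for miR-152, opposite in sign to those from the probes. Sums of the software's probe signals, scaled the same way, gave the sign of the spot-based values, with -1.45 for miR-148a and -1.18 for miR-152.

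**Figure D3:**
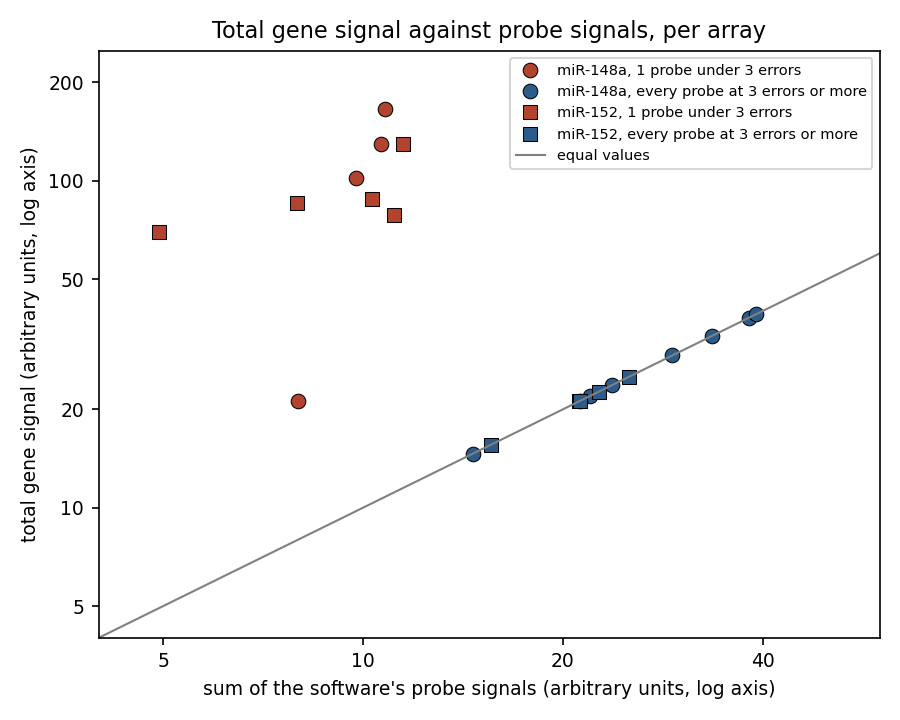
Total gene signal against the sum of the software's probe signals for miR-148a (circles) and miR-152 (squares) on each array where the miRNA was detected, both in arbitrary units on log axes. Blue points, with every probe at 3 errors or more, lie on the line of equal values, and the 9 red points, with 1 probe under 3 errors, lie 2.66 to 15.3 times above it.

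The 2 genotypes were also set side by side at each time. These differences are the terms of the difference of responses on which the miRNAs were chosen, so they are a description, with no test of either miRNA. In untreated cells both miRNAs were lower in KO than in WT on the scaled signal, miR-152 by no more than the median of all tested miRNAs. MiR-148a was 1.95-fold lower in KO, at -0.97 log2 units (SE 0.24), and -1.03 and -0.91 within the 2 scan dates. MiR-152 was 1.40-fold lower in KO, at -0.49 log2 units (SE 0.13), and -0.58 and -0.39 within the scan dates. Over all tested miRNAs limma called 32.6% in untreated cells (47 of 144, of which 10 were higher and 37 lower in KO).

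The median over all tested miRNAs was itself -0.50 in untreated KO cells against WT cells. Relative to it miR-148a was at -0.47 and miR-152 at 0.01. The scaling values were 709.5 and 791.2 on the untreated KO arrays, against 577.0 and 555.7 on the untreated WT arrays. Before scaling, miR-148a had 35.7 and 43.1 signal units in untreated KO cells, against 59.1 and 56.8 in untreated WT cells, without overlap. Before scaling, miR-152 had 31.9 and 33.4 units in KO cells, against 38.9 and 30.8 in WT cells, with overlap. With median scaling the differences were -0.64 for miR-148a and -0.17 for miR-152.

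At 12 h of tunicamycin miR-148a was 2.11-fold higher in KO than in WT cells, at 1.07 log2 units (SE 0.24), with 0.94 and 1.44 within the scan dates before the floor. In signal units miR-148a had 50.5 and 31.1 in KO cells at 12 h, against 22.0 and 15.7 in WT cells at 12 h, without overlap. MiR-152 differed by 0.36 log2 units (SE 0.13), and by 0.62 with the floor divided by 4, which keeps the WT arrays at their measured values. Over all tested miRNAs limma called 25% at 12 h (36 of 144, 21 higher and 15 lower in KO). Without WT at 12 h replicate 2 the difference of miR-148a was 0.74, and without KO at 12 h replicate 1 it was 0.88.

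At 24 h limma called 15.3% of all tested miRNAs between genotypes (22 of 144). MiR-148a differed by 0.56 log2 units, higher in KO, with a 95% interval of -0.01 to 1.13, and its scaled KO arrays lay above its WT arrays. In signal units it had 14.7 and 31.5 in KO cells at 24 h, against 12.0 and 15.7 in WT cells at 24 h, which overlap before scaling. MiR-152 was not well above background on any of these 4 arrays, with 6.07 and 17.1 signal units in KO cells, against 7.66 and 7.27 in WT cells, so no fold is given.

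Between 12 h and 24 h limma called 0 of 144 miRNAs (0%) in KO and 0 of 144 (0%) in WT, with 11 and 4 at an unadjusted p under 0.05. These differences lie between the responses on which the miRNAs were chosen, so they too are a description, with no test of either miRNA. In KO cells miR-148a at 24 h differed from 12 h by -0.43 (95% interval -0.998 to 0.14), with -0.44 and -0.42 within the scan dates. In WT cells it differed by 0.08 (95% interval -0.49 to 0.65), with -0.29 and 0.69 within the dates, opposite in sign. For miR-152 no fold is given between 12 h and 24 h in either genotype, since only 1 of 2 arrays at 12 h, and neither at 24 h, was well above background.

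**Figure D4:**
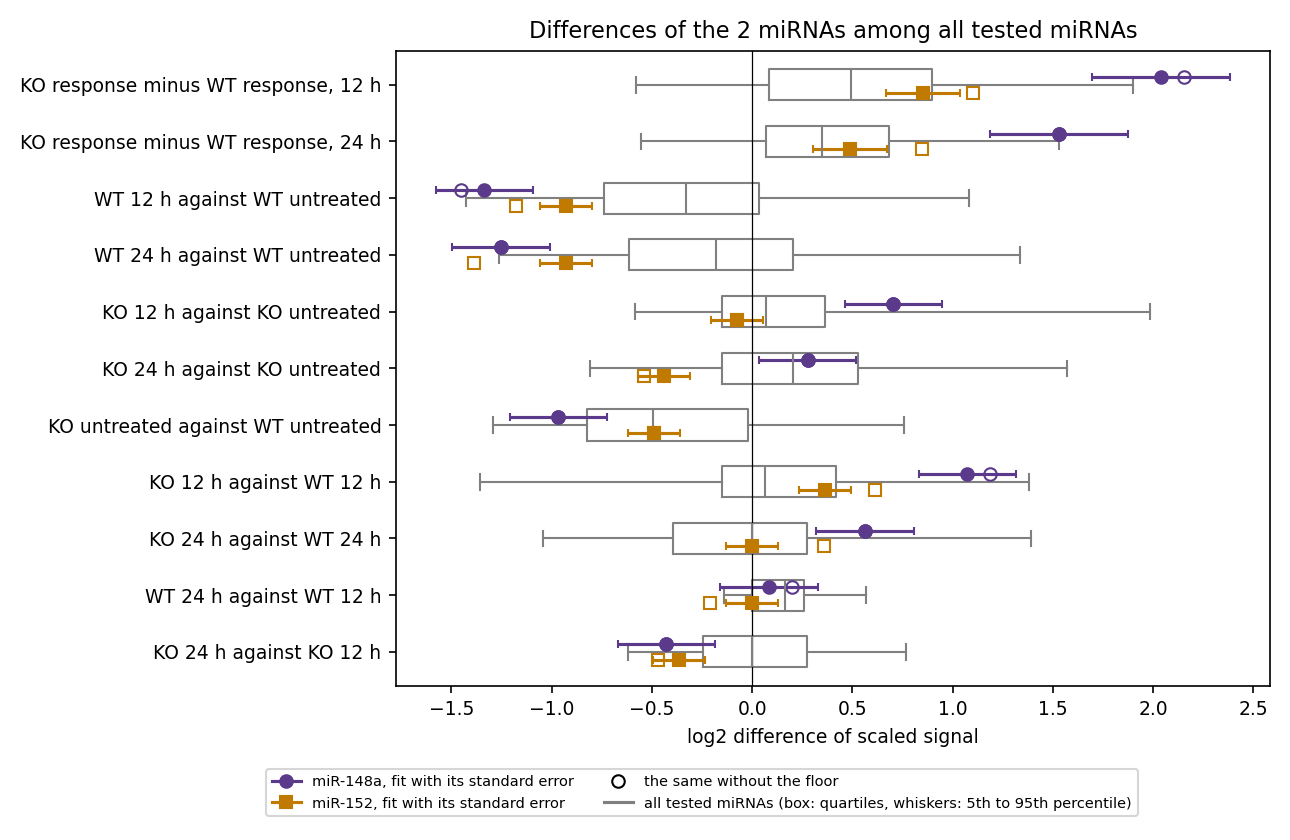
Log2 differences of scaled signal for miR-148a (circles) and miR-152 (squares) in the 11 comparisons, with standard errors, over boxes of all 144 tested miRNAs (quartiles, with whiskers from the 5th to the 95th percentile). Hollow symbols leave out the floor. The difference of responses, KO minus WT, at 12 h is 2.04 for miR-148a and 0.85 for miR-152, against a median of 0.50 over all tested miRNAs.

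The third member of the seed family, miR-148b, was dim on every array. Its signal was 0.61% to 1.57% of the scaling value on the 6 KO arrays, against 1.18% to 2.40% on the 6 WT arrays, under the floor on all 12. It was well above background on WT at 12 h replicate 1 only and was not tested. Its total gene signal on the 2 untreated WT arrays was 45.8 and 46.9, of which 7.60 and 7.82 were its own and the rest was the total of miR-148a, which precedes it. The opposite strand of the miR-148a hairpin, miR-148a*, was not well above background on any array, and its summed signal was below 0 on each.

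Over the 12 arrays the log2 scaled signals of miR-148a and miR-152 had a Pearson correlation of 0.74 with the floor and 0.76 without it. Among 125 other miRNAs well above background on at least 6 arrays, those most like miR-148a were miR-26b (0.96), miR-146b (0.92) and miR-106b (0.91), and the least alike was miR-365 (-0.53). Those most like miR-152 were miR-30b (0.88), miR-130a (0.83) and miR-467a (0.83), and the least alike was miR-30a* (-0.65). The correlations with other miRNAs were taken with the floor, so values tied at the floor enter them. MiR-152 was at the floor in KO at 24 h and both treated WT groups, and miR-467a in every group but untreated WT. MiR-146b was at the floor in untreated KO and both treated WT groups. The arrays of a group share their treatment and slide, and all values on an array share its scaling, so these correlations only describe the 12 arrays.

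Other miRNAs known from human cells to target DNA methyltransferases were listed beside the family, and 6 of 7 were tested. This list and the lipid list below were chosen with earlier results of these data known, so their p-values and counts are not an independent test. In untreated cells 3 of 6 were lower in KO, namely miR-29a (-1.19), miR-29b (-1.36) and miR-29c (-1.08, adjusted p = 0.0211, 0.0107 and 0.0264 by limma), which target the de novo methyltransferases, and 0 were higher, where 32.6% of all tested miRNAs passed. The list's median was -0.73, beside -0.50 over all tested miRNAs. At 12 h of tunicamycin miR-342-3p was higher in KO than in WT (1.28, adjusted p = 0.0406 by limma) and miR-29b was lower (-1.02, adjusted p = 0.0365 by limma), so that 2 of 6 passed where 25% of all tested miRNAs did. At 24 h 0 of 6 passed between genotypes, where 15.3% did, and 0 of 6 passed between 12 h and 24 h in either genotype.

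In WT cells at 12 h 2 of the 6 were lower than in untreated WT cells, miR-143 (-1.19, adjusted p = 0.00671 by limma) and miR-342-3p (-1.61, adjusted p = 0.0150 by limma), where 30.6% of tested miRNAs passed (44 of 144). At 24 h miR-143 was lower in WT cells (-1.23, adjusted p = 0.00954 by limma), where 15.3% passed. Treated and untreated arrays lay on separate slides, so these p-values cannot tell treatment from slide. They also rest on 1 spread per miRNA over all 6 groups, although the treated groups varied more than the untreated ones. In KO cells 0 of 6 passed at 12 h, where 0.694% of tested miRNAs did, and 0 of 6 at 24 h, where 2.08% did. The difference of responses passed for 0 of 6 at 12 h, where 22.2% did, and for 0 of 6 at 24 h, where 6.94% did. The median of the list for this difference was 0.43 at 12 h, beside 0.50 over all tested miRNAs, and 0.59 at 24 h, beside 0.35.

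Of 10 miRNAs linked to cholesterol and lipid metabolism, 4 were tested. In untreated cells miR-33, which targets the cholesterol exporter ABCA1, was higher in KO than in WT (0.58, adjusted p = 0.0215 by limma), as were miR-27a (0.76, adjusted p = 0.0242 by limma) and miR-27b (1.07, adjusted p = 0.0253 by limma). MiR-33 was well above background on only 5 of 12 arrays. Its log2 mean was -4.949 in untreated WT cells, next to the floor of -4.957. In KO at 12 h and both treated WT groups it was at the floor, so its standard error is too small. The fourth, miR-30c, was at -0.04. Of all tested miRNAs 32.6% passed there, 10 of 144 as higher in KO. In the other 10 comparisons 0 of the 4 passed, where 0% to 30.6% of all tested miRNAs did.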

How the data were processed

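Total RNA was labelled with Cy3 and hybridised to 1-colour miRNA arrays, 12 in 6 groups, which the authors scanned and quantified by Agilent Feature Extraction 10.7.1.1, per the submitters' processing notes. Spot values are, per the file headers, fluorescence intensity in arbitrary units, background-subtracted and not scaled between arrays. The deposited value table is log2 of the total gene signal, without scaling or centring (largest gap 1.16e-06). Columns deposited by the authors with 0 or 1 flags, per the file headers, gave outlier spots and spots well above background.

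Outlier and control spots were left out, spots were averaged per probe and probe means summed per miRNA. Each array was scaled to its 75th percentile among 82 miRNAs that every array had well above background, values under 3.22% of that were set to it as a floor, and log2 was taken. A probe was well above background when at least 50% of its spots were, and a miRNA when any probe was. The 145 mouse miRNAs that passed on both arrays of some group were kept, and 1 at the floor on every array was dropped. All 6 groups were fitted together with limma 3.58.1 in R 4.3.3 (6 residual degrees of freedom, prior 1.17), with Benjamini-Hochberg adjustment over 144 miRNAs and a threshold of 0.05. The fit was tested on simulated data with independent arrays, no floor and 1 spread per miRNA over all groups. That test does not cover the unequal spreads, the deviations shared by scan date or the floor of these data. Where neither array of a group was well above background, the fold is a bound against the lowest signal well above background on each array, with no allowance for the spread between arrays.

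The members, the lists and the miRNAs named were chosen with earlier results of these data known. Named were the 2 members, family relatives, the 3 miRNAs most like and the 1 least like each member, and list members. Lists covered miRNAs tied to DNA methyltransferases and to lipid metabolism, and markers of fibroblasts, epithelium, muscle, neural cells, blood and endothelium, pluripotent cells and liver, of which miR-122 was never well above background. Alternatives covered background correction (normexp, offset 50, on the median signals, since the files used here hold no mean signals), the measure per miRNA, scaling, floor, filter, spread estimate, replicate number or scan date as a block, and leaving out each array. Normexp without spots of outlying local background, the sum of the software's probe signals and single probes without a floor were added after seeing the data. The spread over the 2 experiments was used for all p-values, as 1 value per miRNA over all 6 groups. Pooled over the tested miRNAs, the SD was 0.129 and 0.153 log2 units in untreated KO and WT cells, but 0.515 to 1.23 in the treated groups. A standard error or p of the fit thus does not reflect the spread of the groups compared alone. With only the compared groups, limma called 103 of 138 between untreated genotypes, 18 of 134 at 12 h and 0 of 137 at 24 h.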

Additional observations from a re-analysis of the deposited data

Results flagged for a closer look

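On the scaled signal miR-148a differed in opposite directions in the 2 genotypes. At 12 h both KO arrays lay above both untreated KO arrays and both WT arrays lay below both untreated WT arrays, and the difference of responses (KO minus WT) was 2.04 log2 units. The KO response in it was 0.70, but -0.053 with the 75th percentile over all mouse miRNAs and -0.58 with normexp on median signals. At 24 h the difference of responses was 1.53, but there the KO response was 0.28, and its sign rests on the processing. The KO arrays at 24 h were at 7.24% and 5.57% of the scaling value, against 5.04% and 5.45% on the untreated KO arrays. The KO response at 24 h was -0.86 unscaled, -1.11 with quantile normalization, -0.55 with the 75th percentile over all mouse miRNAs and -0.45 with normexp on median signals, and 0.027 with median scaling. By probe A_54_P1273 the KO arrays at 24 h overlapped the untreated KO arrays. The difference of responses was not tested, since it chose the miRNA.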

How the results depend on the processing

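Alternatives are quoted as log2 differences in the order miR-148a, then miR-152. The deposited table turned the difference of responses (KO minus WT) at 12 h to -0.30 and -1.24, the WT response at 12 h to 0.35 and 1.91, and KO against WT at 12 h to -0.86 for miR-148a. It gave KO responses at 12 h of 0.045 and 0.67, and KO against WT untreated of -0.55 and -0.075. The total gene signal, scaled, gave 0.11 and -0.82 for the difference of responses, 0.57 and 2.13 for WT at 12 h, -0.79 for miR-148a between genotypes at 12 h, -0.90 and -0.42 between untreated genotypes, and 1.30 for miR-152 in KO at 12 h. At 24 h these 2 measures gave WT responses of 0.44 and 1.19 for miR-148a, the total gene signal 0.77 for miR-152 in WT, and both 0.18 and 1.32 for miR-152 in KO. On the departing tunicamycin arrays the total gene signal held the total of the preceding miRNA, as given above. MiR-152 was undetected on KO and WT at 24 h replicate 1, and was set there to the floor or to the lowest value of the array in the deposited table. The shares of these and of the scaling in the differences were not tested. On the 4 untreated arrays the totals equalled the probe sums, and the deposited table, which is unscaled, gave untreated differences near the unscaled ones below. The sum of the software's probe signals gave 1.104, -1.18 and 0.62 for miR-152 in the difference of responses, WT at 12 h and KO against WT at 12 h, and the floor divided by 4 gave the same.

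Normexp on median signals gave differences of responses of -0.43 and -0.75 at 12 h and -1.23 and -1.49 at 24 h, WT responses of -0.15 and -0.00089 at 12 h and 0.78 and 0.96 at 24 h, KO responses at 12 h of -0.58 and -0.75, KO against WT untreated of 0.63 and 0.82, and 0.20 for miR-148a at 12 h. Without spots of outlying local background it gave 0.80 and 0.48, -0.23 and -0.078, 0.19 and 0.34 for the first, WT 12 h and WT 24 h comparisons, 0.41 and 0.63 for miR-152 in KO at 12 h and 24 h, -0.53 and -0.34 untreated, and 0.28 for miR-148a at 12 h. The cause was not tested.

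For the difference of responses at 12 h, median scaling gave 1.53 and 0.51, the 75th percentile over all mouse miRNAs 0.89 and 0.070 (-0.039 for miR-152 at 24 h), no scaling 1.65 and 0.45, and quantile normalization 0.98 and 0.57. The WT response at 12 h was -0.73 for miR-152 with median scaling, -0.94 and -0.64 with the all-miRNA percentile, -1.21 for miR-152 unscaled and -0.81 for miR-148a with quantile normalization. KO responses at 12 h were -0.053 and -0.57 with the all-miRNA percentile, 0.013 and -0.76 unscaled, and 0.17 and -0.33 with quantile normalization. Between untreated genotypes these scalings, median first, gave -0.64, -0.41, -0.56 and -0.33 for miR-148a and -0.17, 0.070, -0.085 and -0.019 for miR-152, and the floor divided by 4 gave -0.97 and -0.49. For miR-148a between genotypes at 12 h they gave 0.89, 0.48, 1.09 and 0.65, and the 2 groups alone, which cannot move the difference, 1.07. The brightest probe gave 0.66, -0.48, 0.18 and 0.012 for miR-152 in the difference of responses, WT at 12 h, KO at 12 h and KO at 24 h. The mean of log2 probe signals gave 1.17 and 0.32 for the difference of responses and -0.76 and -0.28 for WT at 12 h. The causes were not tested.

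With 1 array left out, the difference of responses at 12 h ran from 1.71 to 2.37 for miR-148a, its WT response from -1.67 to -1.002, its untreated genotype difference from -1.02 to -0.91 and that at 12 h from 0.74 to 1.41, and the untreated difference of miR-152 from -0.63 to -0.35. The numbers of miRNAs called ran from 0 with normexp to 103 with only the compared groups untreated (47 in the reported fit), 0 to 47 at 12 h (36) and 0 to 43 at 24 h (22) between genotypes, and 0 to 35 in KO at 24 h against 12 h (0), with 35 when KO at 24 h replicate 1 was left out. Without scaling 14 were higher and 12 lower in KO untreated and 11 and 4 at 12 h, and with median scaling 3 and 7, and 6 and 10.

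Same-numbered arrays deviated together within a slide (correlations of 0.68 to 0.95) but not across slides (-0.54 to -0.24), so the numbers are not taken as pairs across slides. Within a slide they share a scan date, but the reported fit holds no term for it, so its standard errors and p-values leave out this pairing. With scan date as a block limma called 51 of 144 between untreated genotypes, 28 at 12 h and 17 at 24 h, beside 47, 36 and 22 in the reported fit. With the replicate block the difference of responses of miR-148a at 12 h was 2.04, which a block cannot move where every group holds both numbers. The filter on all 12 arrays left out both miRNAs. Signal over background limits miR-152 after treatment, and miR-148a in WT cells at 12 h and 24 h and KO cells at 24 h, where 1 of 2 arrays in each group was not well above background.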
